A study of Mus musculus with 3 samples.

Results

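Copies of the 5′ region of L1Md_A, the A-type of the mouse L1 elements, were examined one by one for DNA methylation in P7 spermatogonia. A copy was any place in mm10 that matched the L1Md_A bisulfite PCR amplicon of the study, with its converted bases put back, at 90% identity or more over 90% of its length or more. The genome held 5007 such matches, and merging those that overlap gave 2222 copies, of which 1871 lie on autosomes. The 441 autosomal copies with at least 5 methylation calls in each library are described here, which is 23.6% of the autosomal copies. The study asked how far mutations of *Pld6* and *Dnmt3l* lower the methylation that retrotransposons gain in male germ cells.

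L1 elements are retrotransposons that move through an RNA copy of themselves. In mouse A-type elements the 5′ region is an array of tandem repeats called monomers, which carries the promoter, so that methylation of its CpG sites bears on whether the element is transcribed. In fetal male germ cells methylation is erased and laid down anew. *Pld6* encodes a protein on the outer mitochondrial membrane that is needed to make piRNAs, small RNAs that cleave retrotransposon RNA and guide methylation to some retrotransposons. *Dnmt3l* encodes a partner of the de novo DNA methyltransferases that has no catalytic activity of its own.

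The amplicon is 217 bp long and holds 13 CpG sites. The following stretches of it hold 10 of these sites and show how the sites cluster, with CG in capitals and positions counted from the 5′ end of the amplicon.
positions 18 to 47: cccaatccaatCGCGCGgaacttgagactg
positions 97 to 126: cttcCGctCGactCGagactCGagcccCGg
positions 160 to 189: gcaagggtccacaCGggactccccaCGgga

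The same 30 positions of the amplicon, 21 to 50, follow as they stand in 5 of the copies that the results turn on, read 5′ to 3′ along the element from GRCm38 (mm10), each in the match of highest identity within its copy. They show that matches differ in the CpG sites themselves, which holds within a copy as well as between copies.
copy in *S100a7l2*, chr3:91096997-91097026, plus strand: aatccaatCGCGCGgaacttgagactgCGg
copy in *Bmpr1b*, chr3:142003478-142003507, plus strand: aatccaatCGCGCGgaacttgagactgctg
copy in *Mup-ps15*, chr4:61685103-61685132, minus strand: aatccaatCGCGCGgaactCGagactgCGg
copy in *Gm36816* and *Gng12*, chr6:67007030-67007059, minus strand: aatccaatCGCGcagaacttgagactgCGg
copy in *Atg7*, chr6:114765432-114765459, minus strand: aatccaatCGCGgaactCGagactgCGg

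The S100a7l2 window is letter for letter that of the amplicon, with 4 CG. The Mup-ps15 window has 5, the Bmpr1b and Gng12 windows have 3 each, and the shorter Atg7 window has 4. Other matches of the Bmpr1b and Gng12 copies hold the window of the amplicon unchanged, and some matches of the S100a7l2 copy have 3 CG.

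The series holds WT, *Pld6* KO and *Dnmt3l* KO spermatogonia of the C57BL6/J strain, sorted at postnatal day 7 with an antibody to EpCAM, with 1 whole-genome bisulfite library for each genotype. The study's methods describe both lines as backcrossed to C57BL/6J and name more than 1 animal for each genotype, WT including heterozygotes. Each file used here is labelled as the first replicate, so that differences between genotypes cannot be told apart from differences between libraries, and no test between genotypes was made. A methylation level is the number of methylated calls divided by all calls, in fraction values, and its interval is a 95% Wilson interval, which covers counting error only. For a level of 0, the bound given is 3 calls out of all calls at the copy. Autosomal calls numbered 42893386 in WT, 62835995 in the *Pld6* KO and 18874945 in the *Dnmt3l* KO, and the labels went with the calls at the mutated genes. *Pld6* KO had no call over 42 consecutive CpG sites of *Pld6*, where the other libraries had 104 and 48 calls, and *Dnmt3l* KO had none over 53 sites of *Dnmt3l*, where WT had 88 and *Pld6* KO 171. Within 500 bp of the start of *Kcnq1ot1*, which carries methylation of maternal origin in somatic cells, the level was 0.0780 in WT, 0.0700 in the *Pld6* KO and 0.0154 in the *Dnmt3l* KO, on 141, 243 and 65 calls.

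Most of the copies belonged to elements that run on to the 3′ end. Of the 441 copies, 419 were followed by a complete body of 6042 bp, which neighbouring copies on the same strand can share. A copy held a median of 2 matches and ranged from 1 match in 135 copies to 48 matches in a copy of 9995 bp. Monomers that are partial or more diverged are not counted as matches, so the number of matches can fall short of the number of monomers. The median copy was 425 bp long with 26 CpG sites, and the median identity of its matches to the amplicon was 96.1%. The copies that fell short of 5 calls were closer to the amplicon, with a median identity of 98.2%, and had a median of 1 match. Only reads that map to 1 place give calls, and 680 autosomal copies had no call in any library.

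The rule asks for a number of calls, which longer copies reach more easily. The other autosomal copies had a median length of 217 bp with 14 CpG sites, beside the 425 bp and 26 sites of the 441. The parts that length and unique mapping have in this were not tested. The 441 copies held 68.7% of all copy calls in WT, 66.6% in the *Pld6* KO and 75.6% in the *Dnmt3l* KO. Calls on all autosomal copies made up 0.0371%, 0.0424% and 0.0458% of the autosomal calls in the same order, so that the mutant libraries did not lack reads from these elements. A copy had a median of 18 calls in WT, 29 in the *Pld6* KO and 12 in the *Dnmt3l* KO. The 73 copies with exactly 5 calls in their least covered library had median levels of 0.941, 0.0755 and 0 in WT, *Pld6* KO and *Dnmt3l* KO, and the 76 copies with 4 calls, just outside the rule, had 0.939, 0.0961 and 0. The *Pld6* KO median was 0.191 in the 58 copies with 3 calls and 0.138 in the 52 with 6. Across the 441 copies the level went weakly with the number of calls in the same library, with Spearman's rho of -0.196 in WT, 0.209 in the *Pld6* KO and 0.216 in the *Dnmt3l* KO.

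In WT nearly every copy was highly methylated, and in both mutant libraries nearly every copy had a much lower level. The median level of a copy was 0.909 in WT (95% interval of the median over copies 0.895–0.921), 0.161 in the *Pld6* KO (0.133–0.176) and 0 in the *Dnmt3l* KO (0–0). With calls pooled over the copies the levels were 0.870 (0.863–0.876), 0.227 (0.221–0.233) and 0.0942 (0.0873–0.101). A level of 0.5 or more was found in 437 copies in WT, in 38 in the *Pld6* KO and in 22 in the *Dnmt3l* KO. No copy was at 0 in WT, whereas 100 were in the *Pld6* KO (22.7%) and 319 in the *Dnmt3l* KO (72.3%). A copy at 0 with the median 12 calls of *Dnmt3l* KO could still hold a low level.

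**Figure D1:**
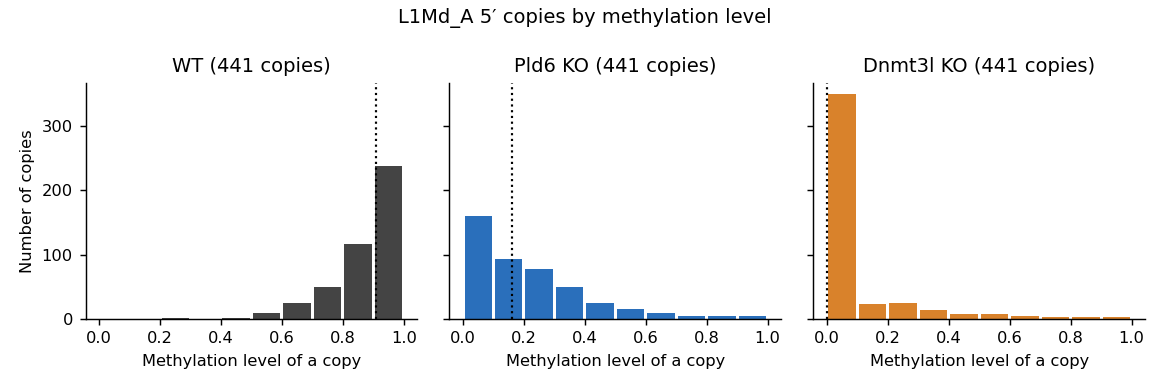
Number of copies (y axis) in each interval of 0.1 of the methylation level (x axis, fraction) in the 3 libraries, 441 copies each, with the dotted line at the median. In WT 238 copies lie at 0.9 or above. In *Pld6* KO 160 copies lie under 0.1 and the rest trail off to 1, and in *Dnmt3l* KO 350 copies lie under 0.1.

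The mutant libraries differed in the shape of their distributions. In *Pld6* KO the middle range was filled, with quartiles of 0.0323 and 0.3 and a 90th percentile of 0.467. In *Dnmt3l* KO the upper quartile was 0.0588 and the 90th percentile 0.286. The SD between copies was 0.123 in WT, 0.198 in the *Pld6* KO and 0.174 in the *Dnmt3l* KO. Counting alone, at the copies' own call numbers and the library's pooled level, would give SDs of 0.0901, 0.0900 and 0.0912. The spread between copies exceeded these SDs in each library. They treat linked calls of a read as independent and are therefore too small by an unknown amount.

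The *Pld6* KO level was lower than the WT level by at least 0.3, the size that the study calls severe, in 408 of the 441 copies, or 92.5% (89.7–94.6%). Of 1197920 autosomal 1 kb tiles outside the copies with the same coverage minimum, 2.5% were lower by that much. The *Dnmt3l* KO level was lower than WT by at least 0.3 in 422 copies, or 95.7% (93.4–97.2%), beside 71.6% of the tiles. Such a decrease was thus rare among the tiles of the *Pld6* KO library, while most tiles were lower as well in the *Dnmt3l* KO library. The median level of the tiles was 0.889 in WT, 0.875 in the *Pld6* KO and 0.333 in the *Dnmt3l* KO.

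Tiles as dense in CpG sites as the copies, with at least 51 per kb, were mostly unmethylated already in WT, with a median level of 0.00515. Among 13113 of them, 0.892% were lower by at least 0.3 in the *Pld6* KO and 1.91% in the *Dnmt3l* KO. A comparison chosen after the data were seen used the 267 dense tiles with a WT level of at least 0.6, which can include 5′ regions of other young elements. Here 42.3% were lower by at least 0.3 in the *Pld6* KO and 84.6% in the *Dnmt3l* KO. Of the 428 copies with such a WT level, 93.5% and 96.5% were lower.

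Fisher's exact test, two-sided, was applied to the calls of each copy, with Benjamini-Hochberg adjustment over the copies and the tiles together, 1198361 tests. It compares the libraries and not the genotypes. It also treats linked calls of a read as independent, so that its p-values, here and below, can be too small by an unknown amount. At an adjusted p under 0.05 it called 313 copies lower in the *Pld6* KO than in WT (71.0%), beside 0.624% of the tiles, and 402 lower in the *Dnmt3l* KO than in WT (91.2%), beside 56.4% of the tiles. No copy was called higher in a mutant library than in WT at this limit, and 397 and 412 copies had an unadjusted p under 0.05. The adjustment asks for a smaller p where fewer tests differ, as among the tiles of *Pld6* KO.

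Most copies had a little more methylation in the *Pld6* KO than in the *Dnmt3l* KO. The *Pld6* KO level was the higher in 297 copies, the lower in 54, and both were 0 in 90. The median difference was 0.106 (0.0800–0.133). A difference of at least 0.3 in this direction was found in 80 copies (18.1%), beside 71% of the tiles, and Fisher's test called 65 copies (14.7%), beside 61.2% of the tiles, and 8 in the other direction. The share among the copies is bounded by their low *Pld6* KO levels, since 330 copies were under 0.3 there and could not be lower by that much. Of the other 111 copies, the 80 make up 72.1%. The share of the tiles was taken over all tiles, whatever their *Pld6* KO level, and is not directly comparable with it. Across the 441 copies the levels in *Pld6* KO and *Dnmt3l* KO went together weakly (Pearson's R = 0.431, Spearman's rho = 0.333), and the WT level went with neither (R = -0.0203 for *Pld6* KO, R = -0.0410 for *Dnmt3l* KO). The points share the reference copy and its neighbours but no reads.

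**Figure D2:**
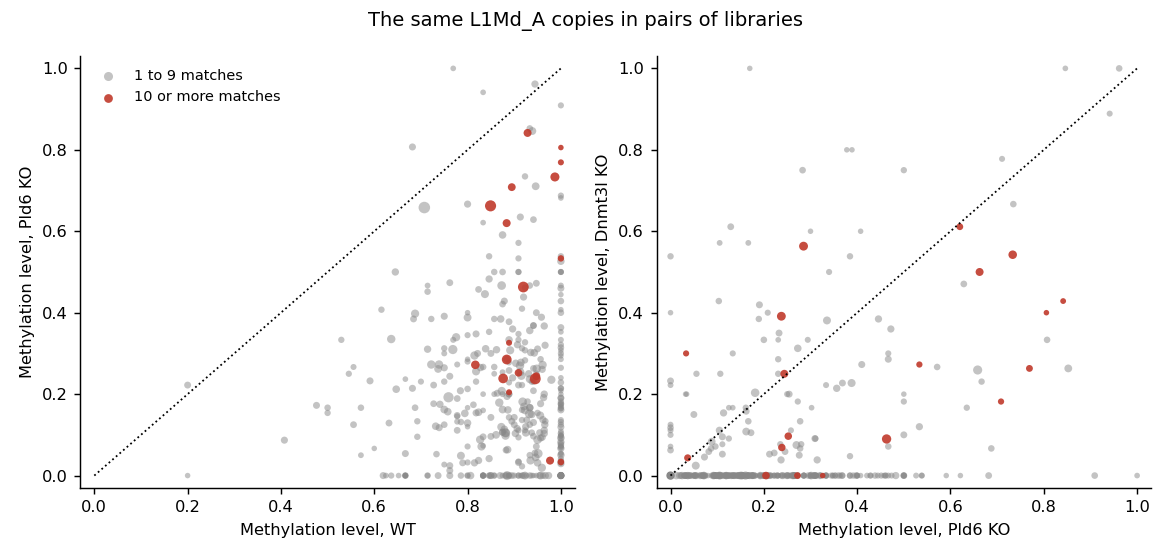
Methylation level of each copy (fraction) in WT against *Pld6* KO (left) and in *Pld6* KO against *Dnmt3l* KO (right), with point area rising with the calls in the less covered library and the dotted line marking equal levels. On the left 436 of the 441 copies lie below the line, and on the right 90 copies lie at 0 on both axes. Copies of 10 or more matches (red, 19 copies) lie between 0.0333 and 0.841 in *Pld6* KO.

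Whether a copy keeps its own level was examined with reads that do not overlap. Trimmed reads are at most 79 bp long, so sites on either side of a central gap of that width come from separate reads. In copies with at least 5 calls on each side, the levels of the 5′ side and of the 3′ side were related with R = 0.0678 in WT (112 copies), 0.298 in the *Pld6* KO (142 copies) and 0.556 in the *Dnmt3l* KO (56 copies). The SD shared between the sides was 0.0331, 0.132 and 0.137 in the same order. Much of this rested on the long arrays described below. Without copies of 10 or more matches R was 0.0577 in WT (100 copies), 0.158 in the *Pld6* KO (129 copies) and 0.206 in the *Dnmt3l* KO (46 copies), with rho of 0.0702, 0.0130 and 0.354. Among the shorter copies the measured level of one side therefore told little about the other in WT and *Pld6* KO. Counting error on sides with as few as 5 calls lowers R, and most WT levels lay close together. These values cannot decide whether shorter copies keep a level of their own.

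Lying within a gene made little difference. Of the 441 copies, 105 (23.8%) overlapped a RefSeq gene, 104 of them in introns. Inside genes the median levels were 0.941 in WT, 0.153 in the *Pld6* KO and 0 in the *Dnmt3l* KO. Outside genes, in 336 copies, they were 0.909, 0.162 and 0. The intervals overlapped in each library (*Pld6* KO 0.105–0.205 inside and 0.136–0.182 outside), and 9 copies inside and 29 outside had a *Pld6* KO level of 0.5 or more, 8.57% and 8.63%.

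Copies within genes mostly ran against the gene. Of those in 1 orientation, 20 were sense and 82 antisense to the host gene, so that 19.6% were sense (13.1–28.4%). Of all autosomal copies within genes, whatever their calls, 179 were sense and 340 antisense (34.5%, 30.5–38.7%). The part that coverage has in this gap was not tested. In *Pld6* KO the median level was 0.123 for sense copies (0.0667–0.262) and 0.161 for antisense copies (0.106–0.231), so that the intervals overlapped, and WT medians were 0.897 and 0.941. In *Dnmt3l* KO both medians were 0. With calls pooled, sense copies were lower in *Pld6* KO, at 0.163 (0.139–0.190) against 0.259 (0.245–0.272), and the antisense level was 0.234 (0.220–0.247) without the heavily covered copy in *Atg7* described below, an alternative chosen after the data were seen. The order of the medians turned with the copies used. At 95% identity or more the median was 0.289 in 10 sense copies and 0.161 in 46 antisense copies, and with sites at least 79 bp inside the copy it was 0.236 in 10 and 0.174 in 46.

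Identity to the amplicon went with the levels only faintly. Spearman's rho between the mean identity of a copy and its level was 0.0239 in WT, 0.123 in the *Pld6* KO and 0.0452 in the *Dnmt3l* KO, over 441 copies. In the third of the copies with the highest identity (97.9–99.5%, 146 copies), the *Pld6* KO median was 0.225 (0.174–0.265), and 22 copies were at 0.5 or more. In the third with the lowest identity (90.2–94.0%, 147 copies), it was 0.125 (0.103–0.161), and 11 were at 0.5 or more. The 148 copies of intermediate identity had a median of 0.151 (0.114–0.181) with 5 copies at 0.5 or more, and their pooled level of 0.194 was below the 0.213 of the copies of lowest identity and the 0.266 of the highest. From the highest to the lowest identity the WT medians of these groups were 0.913, 0.909 and 0.917. Identity, the number of matches and the call number of a copy vary together, and their parts were not tested apart.

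The number of matches showed a step at the longest arrays rather than a slope. In *Pld6* KO the median was 0.132 for 135 copies of 1 match, 0.162 for 107 of 2, 0.156 for 71 of 3 and 0.152 for 109 of 4 to 9. For the 19 copies of 10 or more matches it was 0.326 (0.239–0.708). In *Dnmt3l* KO the first 4 classes had a median of 0 and the 19 long arrays one of 0.263 (0.0690–0.429). The WT median of the long arrays, 0.920, was within the range of the other classes, 0.902 to 0.923. Without the 19 arrays rho between the number of matches and the level was 0.0379 in the *Pld6* KO and 0.0255 in the *Dnmt3l* KO, after 0.106 and 0.125 with them. The class of 10 or more matches was one of those drawn up for this description with earlier results of these data known, and the arrays were singled out after their levels were seen.

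**Figure D3:**
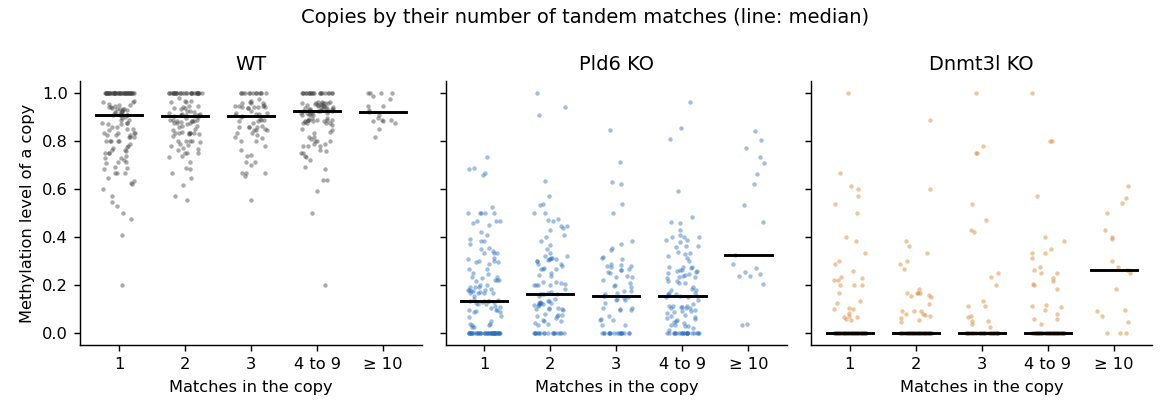
Methylation level of each copy (y axis, fraction) by the number of tandem matches in it (x axis), with a line at the median of each class. The medians of the mutant libraries are level from 1 to 9 matches and higher, at 0.326 in the *Pld6* KO and 0.263 in the *Dnmt3l* KO, for the 19 copies of 10 or more.

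The 19 long arrays span 2089 to 9995 bp. Their pooled level was 0.907 in WT (0.890–0.922), 0.388 in the *Pld6* KO (0.367–0.409) and 0.293 in the *Dnmt3l* KO (0.258–0.331). Leaving out any 1 of them kept the pooled level between 0.354 and 0.425 in the *Pld6* KO and between 0.257 and 0.329 in the *Dnmt3l* KO. The arrays differed greatly among themselves in the mutants, from 0.0333 to 0.841 in the *Pld6* KO and from 0 to 0.611 in the *Dnmt3l* KO, while WT levels ran from 0.817 to 1.

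With calls pooled over the arrays, the mutant levels were higher away from the 5′ edge. Within 500 bp of that edge the level was 0.868 in WT, 0.212 in the *Pld6* KO (0.175–0.255) and 0.144 in the *Dnmt3l* KO (0.0864–0.232). More than 1000 bp inside, it was 0.907 in WT, 0.476 in the *Pld6* KO (0.449–0.503, 1338 calls) and 0.369 in the *Dnmt3l* KO (0.323–0.416, 407 calls). In copies of 4 to 9 matches, the stretch more than 1000 bp inside had 0.942 in WT, 0.158 in the *Pld6* KO (0.127–0.196, 430 calls) and 0.0746 in the *Dnmt3l* KO (0.0410–0.132, 134 calls). The stretches draw on different arrays, since 11 arrays gave *Pld6* KO calls within 500 bp of the edge and 19 gave them more than 1000 bp inside, and 7 and 19 did so in *Dnmt3l* KO. Among arrays with at least 5 calls in both stretches, a choice also made after the data were seen, the inner one had the higher level in 8 of 9 in *Pld6* KO, with pooled levels of 0.206 at the edge and 0.470 inside. In *Dnmt3l* KO it was higher in 6 of 7, with 0.144 and 0.470, and in WT in 4 of 7, with 0.865 and 0.904. The medians over these arrays were 0 at the edge and 0.2 inside in *Dnmt3l* KO, so that its pooled inner level lay above that of a typical array. In *Pld6* KO the medians were 0.192 and 0.477.

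The array of 48 matches, chr3:6297515-6307509 on the plus strand, 318 kb from the nearest annotated protein-coding start, had a level of 0.884 in WT on 112 calls, 0.285 in the *Pld6* KO on 214 calls and 0.563 in the *Dnmt3l* KO on 71 calls. It was one of the copies named for a high *Dnmt3l* KO level, and that level exceeded the one in *Pld6* KO, the reverse of the order in most copies. The array of 22 matches in an intron of *Filip1*, a gene for a protein that binds filamin, had 0.945 in WT on 182 calls, 0.238 in the *Pld6* KO on 421 calls and 0.391 in the *Dnmt3l* KO on 69 calls. The array of 24 matches in an intron of *S100a7l2*, a member of the S100 family of calcium-binding proteins, chr3:91095105-91100104, had 0.987 in WT on 78 calls, 0.733 in the *Pld6* KO on 90 calls and 0.542 in the *Dnmt3l* KO on 59 calls. The array of 21 matches at chr7:72650347-72654721, with *Mctp2* as the nearest start, had 0.849, 0.662 and 0.5 on 199, 234 and 42 calls. The last 2 were above 0.4 in every library, and all 4 lay within the WT range of the other arrays. These levels rest on part of each array. The array of 48 matches has 576 CpG sites, and calls fell on 49 (WT), 56 (*Pld6* KO) and 41 (*Dnmt3l* KO). In the same order they fell on 69, 87 and 43 of 272 sites in *Filip1* and 32, 28 and 26 of 300 in *S100a7l2*. Near *Mctp2* they fell on 65, 52 and 36 of 253. The edge and inner stretches above likewise rest on covered sites only.

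The array of 11 matches antisense within *Gm38510* had 0.920, 0.463 and 0.0899 on 174, 257 and 89 calls, so that of the mutant libraries only *Pld6* KO had an intermediate level there. Not every long array had a high level in the mutant libraries. The array of 14 matches at chr6:67006655-67009575, minus strand, lies in an intron of *Gng12*, which encodes a G protein gamma subunit, and overlaps the first exon of the lncRNA gene *Gm36816*, whose annotated start lies within the array on the same strand. It is the 1 copy of the 441 that overlaps an exon. It had 0.977 in WT on 43 calls (0.879–0.996), 0.0368 in the *Pld6* KO on 136 calls (0.0158–0.0832) and 0.0435 in the *Dnmt3l* KO on 23 calls (0.00772–0.210). By Fisher's exact test against the WT library, the adjusted p was 2.07e-29 for *Pld6* KO and 1.28e-12 for *Dnmt3l* KO.

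The lower level in *Pld6* KO did not stop at the monomers. Partial matches continue upstream of 423 of the 441 copies, by a median of 108 bp, so the flank was measured from the outermost of them, a choice made after the data were seen. In the first 250 bp upstream the level was 0.782 in WT (0.759–0.803), 0.196 in the *Pld6* KO (0.179–0.215) and 0.0362 in the *Dnmt3l* KO (0.0247–0.0529). In *Pld6* KO it then rose with distance, to 0.243 at 250 to 500 bp, 0.407 at 500 to 750 bp, 0.557 at 750 to 1000 bp, 0.678 at 1000 to 1250 bp and 0.705 at 1250 to 1500 bp. Between 1500 and 1750 bp it was 0.753 (0.730–0.776), beside 0.791 in WT (0.765–0.816). WT stayed between 0.723 and 0.820 over the whole 3000 bp, and *Dnmt3l* KO stayed at or below 0.165.

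The flanks were also compared one by one. Of 65 copies whose first 500 bp of flank had at least 5 calls in each library, 54 flanks (83.1%) were lower than WT by at least 0.3 in the *Pld6* KO and 57 (87.7%) in the *Dnmt3l* KO. At 500 to 1000 bp the counts were 32 of 65 (49.2%) and 57 of 65. At 1000 to 2000 bp they were 20 of 137 (14.6%) and 129 of 137 (94.2%), and at 2000 to 3000 bp 10 of 139 (7.19%) and 127 of 139 (91.4%). Upstream of the 38 copies with a *Pld6* KO level of 0.5 or more, the first 500 bp had a *Pld6* KO level of 0.424 (0.362–0.488, 236 calls). Upstream of the 160 copies with a level under 0.1 it was 0.203 (0.180–0.227, 1114 calls), with WT at 0.784 and 0.779. Copies and flanks thus went together to some degree, although reads that cross the edge can serve both.

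On the other side the *Pld6* KO level rose with distance into the element. In the first 500 bp after the copy, the levels were 0.867 in WT, 0.2 in the *Pld6* KO (0.187–0.213) and 0.0702 in the *Dnmt3l* KO. At 500 to 1000 bp *Pld6* KO had 0.465 (0.429–0.502) beside 0.798 in WT, and at 1000 to 1500 bp 0.674 (0.634–0.711) beside 0.816. *Dnmt3l* KO stayed low there, at 0.157 and 0.0722. Calls were fewest at 1500 to 2000 bp, 94 in WT, where *Pld6* KO had 0.761 beside 0.681 in WT. Further into the element the *Pld6* KO level stayed near that of WT. It was 0.768 beside 0.732 at 2000 to 2500 bp, and 0.653 beside 0.714 at 5500 to 6000 bp.

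**Figure D4:**
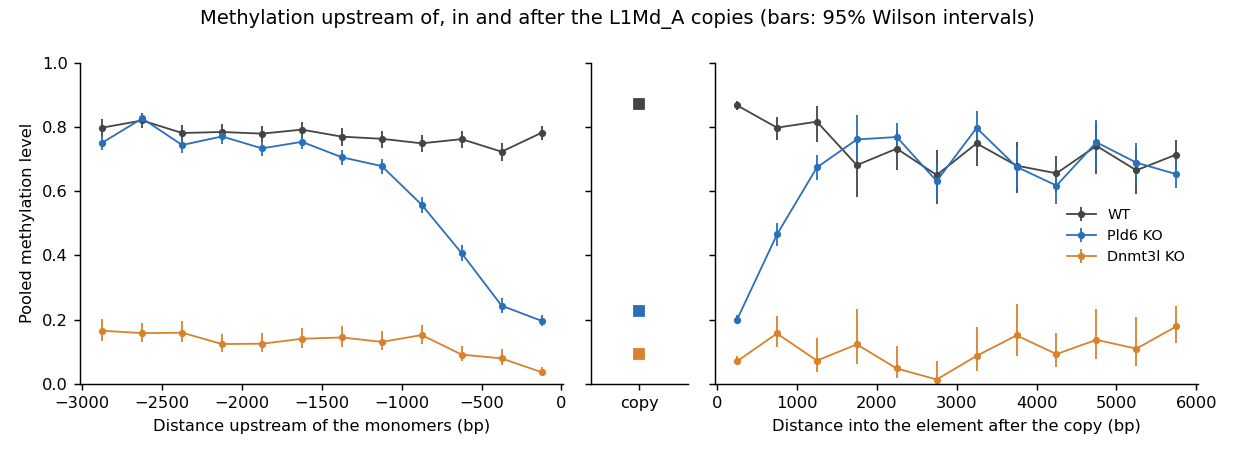
Pooled methylation level (y axis, fraction, bars for 95% Wilson intervals) of the sequence upstream of the outermost monomer (left, distance in bp), of the copies (middle) and of the element after the copy (right, distance in bp). WT (grey) is high throughout and *Dnmt3l* KO (orange) low throughout. *Pld6* KO (blue) falls from near WT beyond 1500 bp to 0.196 next to the monomers, and rises again from 0.2 to 0.674 over the first 1500 bp of the element.

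The 13 CpG sites of the amplicon, pooled over matches that keep the CG, kept the order of the libraries at each site and differed among themselves within each library. WT levels ran from 0.807 at position 31 to 0.920 at position 72. In *Pld6* KO they ran from 0.157 at position 117 (0.136–0.180) to 0.281 at position 33 (0.257–0.307). In *Dnmt3l* KO the lowest was 0.0407 at position 173 (0.0259–0.0634) and the highest 0.169 at position 33 (0.133–0.211). The CGCGCG run at positions 29 to 33, seen in the first stretch printed above, thus held the highest site in both mutant libraries. The margin was small. In *Pld6* KO position 29 had 0.280 (0.256–0.306), and in *Dnmt3l* KO position 48, outside the run, had 0.163 (0.131–0.201). The neighbouring sites of this run, 29 and 31, were the lowest of WT, at 0.840 (0.815–0.862) and 0.807 (0.779–0.832). Matches that keep the CG made up 74.0% to 94.2% of all matches, depending on the site, and different sites draw on different copies.

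**Figure D5:**
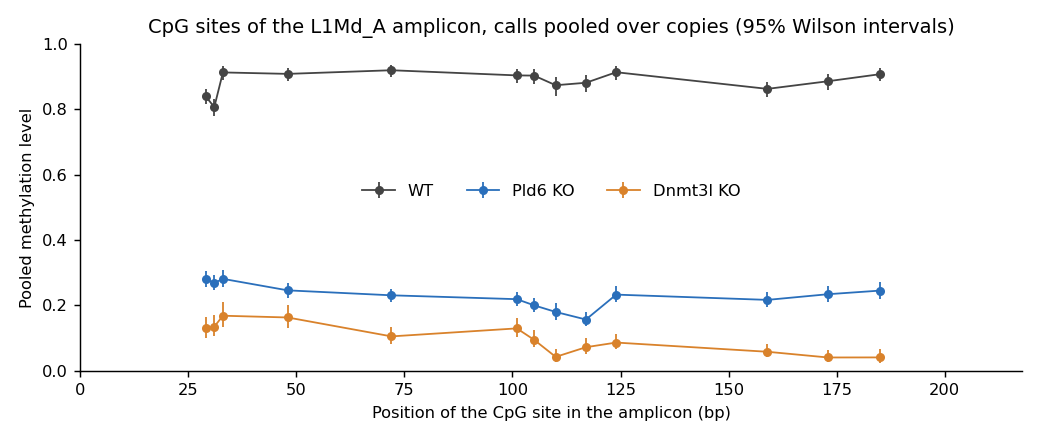
Pooled methylation level (y axis, fraction, bars for 95% Wilson intervals) of each of the 13 CpG sites by position in the 217 bp amplicon (x axis, bp). The libraries stay apart at every site, with WT at 0.807 or above, *Pld6* KO between 0.157 and 0.281, and *Dnmt3l* KO between 0.0407 and 0.169.

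In a small group of copies the level was not much lower than in WT. In *Pld6* KO 33 copies were not lower than WT by 0.3, and in *Dnmt3l* KO 19 were not. In both, 8 copies were not, which is 24.2% of the 33 and 42.1% of the 19. Of the 33, 7 were long arrays, of which there are 19 among the 441 copies, and 9 lay inside genes, as 105 of the 441 do. Of the 19 in *Dnmt3l* KO, 1 was a long array and 4 lay inside genes. A WT level under 0.6, which leaves little room for a decrease, was found in 5 of the 33 and 4 of the 19. The 8 copies were picked after their values were seen, and 2 of them had a WT level of 0.2. The other 6 had a level of 0.6 or more in all 3 libraries.

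The clearest of the 6 was the copy of 5 matches at chr4:61684728-61685776, minus strand, antisense within an intron of *Mup-ps15*, annotated as a lncRNA gene and named as a pseudogene of the major urinary proteins. It had 0.944 in WT on 54 calls (0.849–0.981), 0.962 in the *Pld6* KO on 26 calls (0.811–0.993) and 1 in the *Dnmt3l* KO on 15 calls (0.796–1). An array of 12 matches lies 189 bp from it on the same strand, less than the length of the amplicon away. The 2 are counted apart because only overlapping matches were merged, and they may belong to 1 element. The array had 1 in WT on 5 calls, 0.806 in the *Pld6* KO on 36 calls and 0.400 in the *Dnmt3l* KO on 5 calls. The major urinary protein genes stand in a cluster of near-identical copies, where the assignment of reads is less sure.

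The other 5 had fewer calls or lower levels. The copy of 3 matches at chr8:113570819-113571444 had 0.939 in WT on 49 calls, 0.846 in the *Pld6* KO on 39 calls and 1 in the *Dnmt3l* KO on 6 calls. The copy of 3 matches at chr2:107140129-107140761 had 0.946, 0.711 and 0.778 on 37, 38 and 9 calls. The copy of 2 matches within *Fam110b* had 0.833, 0.941 and 0.889 on 6, 17 and 9 calls. The single match at chr12:18162829-18163038 had 0.923, 0.735 and 0.667 on 13, 49 and 15 calls. The array of 26 matches at chr2:80811909-80817325 had 0.884, 0.620 and 0.611 on 43, 50 and 18 calls. The *Dnmt3l* KO values of these copies rest on 18 calls at most. The copy of 6 matches at chr1:30042214-30043464, among the 5 highest in *Pld6* KO of the copies with at least 20 calls in each library, had 0.846 in WT on 26 calls, 0.483 in the *Pld6* KO on 29 calls and none of 26 calls methylated in the *Dnmt3l* KO, which allows a level of up to 0.115.

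The copy with the most calls needs care. The single match of 213 bp at chr6:114765267-114765479, minus strand, antisense within an intron of *Atg7*, which encodes an enzyme needed for autophagy, had 0.707 in WT on 410 calls and 0.658 in the *Pld6* KO on 237 calls, and 0.259 in the *Dnmt3l* KO on 81 calls. These calls fall on only 7, 6 and 7 sites. Without sites of more than 20 calls in any library, WT had 0.920 on 25 calls and *Pld6* KO had 1 call, so that its high *Pld6* KO level rests on a pile of reads. Fisher's exact test gave an adjusted p of 0.977 between WT and *Pld6* KO, and its first 500 bp of flank had 0.906 in WT and 0.952 in *Pld6* KO, on 32 and 21 calls.

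At the other end, the copies with at least 20 calls in each library and the lowest *Pld6* KO levels had no methylated call in *Pld6* KO or *Dnmt3l* KO. The copy of 4 matches within *Bmpr1b*, a receptor for bone morphogenetic proteins, chr3:142003055-142003882, had 0.885 in WT on 78 calls, 0 in the *Pld6* KO on 75 calls, which allows a level of up to 0.0400, and 0 in the *Dnmt3l* KO on 64 calls, which allows up to 0.0469. Its *Pld6* KO calls fall on 4 sites and its *Dnmt3l* KO calls on 6, beside 16 sites in WT. The copy of 3 matches at chr6:41807248-41807880 had 1 in WT on 23 calls, and 0 on 36 calls in the *Pld6* KO (up to 0.0833) and on 25 calls in the *Dnmt3l* KO (up to 0.120). The copy of 4 matches at chr9:109251072-109251912 had 1 in WT on 28 calls, and 0 on 37 and 25 calls (up to 0.0811 and 0.120). The other 2, at chr15:3807152-3807765 and chr3:93922119-93922959, had 0.762 and 0.850 in WT and 0 in both mutant libraries.

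The copies of lowest WT level among those with at least 20 calls in each library still had intermediate methylation in WT, between 0.591 and 0.682. The copy of 7 matches at chr7:84473704-84475168 had 0.591 in WT on 22 calls, 0.233 in the *Pld6* KO on 43 calls and 0.350 in the *Dnmt3l* KO on 20 calls. The copy of 8 matches at chr9:87838762-87840434 had 0.636, 0.335 and 0.381 on 55, 170 and 42 calls. The copy of 3 matches at chr4:26138236-26138835 had 0.667 on 21 calls, 0.0541 on 74 calls and 0.0244 on 41 calls, and the single match at chr4:51018375-51018591 had 0.682, 0.214 and 0 on 22, 28 and 20 calls. In all of these copies the counting intervals of the mutant libraries overlapped. The single match antisense within *Gm7592* had 0.645, 0.5 and 0.1 on 31, 28 and 20 calls, and so was among the lowest in WT and the highest in *Pld6* KO alike.

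Of the 441 copies, 1 lay within 2 kb upstream of a protein-coding start, a single match at chr7:8384721-8384930, 1.59 kb from the start of *Vmn2r44*, a vomeronasal receptor gene. It had 0.632 in WT on 19 calls, 0.129 in the *Pld6* KO on 31 calls and 0.611 in the *Dnmt3l* KO on 18 calls. By Fisher's exact test the adjusted p between WT and *Pld6* KO was 0.0418, and that between WT and *Dnmt3l* KO was 1. The single copy within *Pamr1*, 3 matches at chr2:102608976-102609594 on the minus strand and antisense to the gene, did not meet the rule, as it had no WT call. It had 1 methylated call of 50 in the *Pld6* KO (0.0200) and none of 23 in the *Dnmt3l* KO, which allows a level of up to 0.130.

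Copies of other young elements that were found in the same way stood elsewhere. For the long terminal repeat of IAP elements, IAPLTR1_MM, only 34 of 1398 autosomal copies had enough calls. Their median levels were 0.903 in WT, 0.764 in the *Pld6* KO (0.5–0.846) and 0.155 in the *Dnmt3l* KO (0–0.364). So small a part need not stand for the other IAPLTR1_MM copies. For the long terminal repeat of ETn elements, RLTRETN_Mm, 149 of 354 autosomal copies had enough calls, with 0.857, 0.328 (0.275–0.453) and 0.0526 (0–0.125). A decrease of at least 0.3 in *Pld6* KO was found in 35.3% of these 34 IAPLTR1_MM copies and 58.4% of the 149 RLTRETN_Mm copies, beside the 92.5% of the L1Md_A copies. In *Dnmt3l* KO the shares were 85.3% and 89.3%, beside 95.7%. These differences between elements were not tested, since copies of an element share a library and are no replicates.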

How the data were processed

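Genomic DNA of sorted P7 spermatogonia was sequenced after post-bisulfite adaptor tagging. Per the study's methods, the authors trimmed the single-end reads and mapped them with Bismark to unique regions of mm10. Removal of duplicate reads is not given in the sources used here. The deposited lists give, site by site, counts of calls for either state beside a fraction that the authors computed from them. Only the counts were used.

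Copies were located by blastn 2.17.0 against GRCm38 (mm10) and annotated with RefSeq genes. The level of a copy is its methylated calls divided by all its calls, from at least 5 calls in each library. Wilson intervals (95%) cover counting error only and treat linked calls of a read as independent. The 95% intervals of medians are distribution-free and come from the ranked levels of the copies. Two-sided Fisher's exact tests compare libraries. The test and the intervals were tried on simulated calls. These were drawn independently and adjusted over the copies alone, so the trial does not cover the linkage of calls within a read. Autosomal 1 kb tiles with the same minimum, outside the copies, served as background. Computations used Python 3.11.15, numpy 2.4.6, scipy 1.17.1 and pandas 2.3.3.

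Named copies were, among those with 20 calls in each library, the 5 highest and the 5 lowest in *Pld6* KO, the 3 highest in *Dnmt3l* KO and the 5 lowest in WT, then the 5 with the most calls, any copy in *Pamr1*, and up to 5 in exons or within 2 kb upstream of a start. The levels that chose a copy are a description. The members, classes and lists were chosen with earlier results of these data known. Alternatives changed the coverage minimum, identity, extent, merging, sites used, chromosomes, decrease, gene set, flank and tiles.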

Additional observations from a re-analysis of the deposited data

How the results depend on the processing

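No alternative reversed a difference between libraries. Of 358 recomputed values 298 stayed within the spread or interval of the value given above, and so did 165 of 176 values of named copies. With at least 10 calls, pooled levels were 0.862 (WT), 0.242 (*Pld6* KO) and 0.107 (*Dnmt3l* KO), first flanks 0.214 (*Pld6* KO) and 0.0595 (*Dnmt3l* KO), and WT rho with matches 0.163. With at least 20 calls, in 72 copies, medians were 0.883 (WT) and 0.186 (*Pld6* KO), outside genes 0.875 and 0.191, pooled levels 0.858, 0.257 and 0.120, SDs 0.0967, 0.162 and 0.150, the *Pld6* KO flank 0.218, and rho 0.157 (WT, identity), 0.313 (WT, matches) and 0.302 (*Dnmt3l* KO, matches). With at least 1 call, SDs were 0.170 (WT) and 0.222 (*Pld6* KO), 89.3% of copies were lower in *Pld6* KO, and its flank was 0.192. At 95% identity, the *Pld6* KO median was 0.190, also outside genes, its sense median 0.289 (10 copies), above the antisense 0.161, its pooled level 0.242, the *Dnmt3l* KO pooled level 0.108, and SDs 0.113 (WT) and 0.192 (*Dnmt3l* KO). Means of site levels gave 0.883 (WT) and 0.208 (*Pld6* KO), flank 0.185. Sites at least 79 bp inside a copy gave pooled levels of 0.886 (WT) and 0.105 (*Dnmt3l* KO), SDs of 0.212 (*Pld6* KO) and 0.186 (*Dnmt3l* KO), and WT rho with matches -0.0784. Without sites of over 20 calls the WT pooled level was 0.879. With chromosomes X and Y the *Dnmt3l* KO SD was 0.191. Decreases of at least 0.2 were found in 96.1% of copies in *Pld6* KO, and of at least 0.5 in 80.05% and 91.2%. Fisher's test called 71.0% and 91.2%. Of 500 bp tiles 3.11% and 67.1% were lower, of dense tiles 0.892% and 1.91%, and of dense tiles methylated in WT, added after the data were seen, 42.3% and 84.6%. The main flank, 0 to 500 bp from the copy, had 0.819, 0.201 and 0.0467. From 500 to 2000 bp it had 0.768, 0.594 and 0.122, and beyond partial matches, added after the data were seen, 0.757 and 0.216 in WT and *Pld6* KO. Without copies of 10 or more matches, also added, pooled levels were 0.205 (*Pld6* KO) and 0.0743 (*Dnmt3l* KO), and rho with matches 0.0255 in *Dnmt3l* KO. The causes were not tested. No paired analysis was possible because each genotype had 1 library.

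Depth limits single copies, with a median of 12 calls in *Dnmt3l* KO. Copies that reads cannot tell apart are not seen.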
